A study of Mus musculus with 4 samples.

Results

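Capillary endothelial cells of the mouse renal capsule with high Plvap transcripts and few transcripts of the fat-type capillary genes Timp4, Rbp7 and Gpihbp1 are described here in aged and young mice. They were chosen from the deposited counts of unique molecular identifiers (UMIs), each of which stands for 1 captured transcript. Kept barcodes had 500 or more UMIs, 300 or more genes and no more than 20% of UMIs from mitochondrial genes. A kept barcode was gated as endothelial with at least 3 UMIs summed over Pecam1, Cdh5, Flt1 and Egfl7 and 0 UMIs of Ptprc, the pan-leukocyte gene. A gated cell was called Plvap high with at least 2 Plvap UMIs and fewer than 3 UMIs summed over Timp4, Rbp7 and Gpihbp1. This rule found 335 cells among 37361 kept barcodes and among 1560 gated endothelial cells. A gated cell with 3 or more UMIs of the fat-type genes, whatever its Plvap, is called a fat-type capillary cell below, and there were 1011 of these.

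The renal capsule is the connective tissue sheath around the kidney. The series holds single-cell 3' RNA libraries of digested capsules from aged mice (2 libraries) and young mice (2 libraries), with no treatment. Neither the ages, the strain nor the number of mice in a library is given in the sources used here. The spread between libraries of an age, and every p-value resting on it, may therefore be technical. The 4 libraries held 6763 and 11973 kept barcodes in aged mice and 8988 and 9637 kept barcodes in young mice. Their median depths were 6208 and 4321 UMIs in aged and 7133 and 7068 UMIs in young libraries. Between 18 and 37 kept barcode sequences were shared by each pair of libraries, at most 0.384% of the smaller library. No Plvap high cell shared its barcode with a Plvap high cell of another library, and 3 of them shared it with some other kept barcode.

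Plvap encodes the protein of the diaphragms that span the fenestrae and the caveolar necks of endothelium, and peritubular capillaries of the kidney cortex are a textbook site of it. Esm1 encodes endocan, a secreted proteoglycan induced by VEGF and used as a marker of endothelial tip cells. Emcn encodes endomucin, a sialomucin of capillary and venous endothelium, and Ptprb encodes VE-PTP, the endothelial receptor phosphatase that acts on the angiopoietin receptor Tie2 and on VE-cadherin. Capillaries of fat, muscle and heart carry another programme, in which Gpihbp1 anchors lipoprotein lipase and Cd36, Fabp4 and Fabp5 take up and bind fatty acids.

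The 4 marker genes are protein-coding genes. On mouse build GRCm38 with the GENCODE M21 annotation, Plvap spans chr8:71497765-71511752 on the minus strand, Esm1 chr13:113209659-113218098 on the plus strand, Emcn chr3:137341067-137432185 on the plus strand and Ptprb chr10:116275523-116389535 on the plus strand. The 200 bases before the 5′ end of Esm1 and Emcn are printed from RefSeq (GRCm38.p6, plus strand) because they are markers that took no part in the rule and whose levels are compared below, and 2 of the 4 markers were matched in that table. Capitals mark each AGGAAG or its reverse complement CTTCCT, a longer form of GGAA, the core of ETS family sites. Such sites are common in endothelial promoters, and matches to GGAA alone are not marked.
Esm1, chr13:113209459-113209658: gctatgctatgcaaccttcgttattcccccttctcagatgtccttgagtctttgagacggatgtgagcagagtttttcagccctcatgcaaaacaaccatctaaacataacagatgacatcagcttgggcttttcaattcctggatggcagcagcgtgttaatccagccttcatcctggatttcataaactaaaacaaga
Emcn, chr3:137340867-137341066: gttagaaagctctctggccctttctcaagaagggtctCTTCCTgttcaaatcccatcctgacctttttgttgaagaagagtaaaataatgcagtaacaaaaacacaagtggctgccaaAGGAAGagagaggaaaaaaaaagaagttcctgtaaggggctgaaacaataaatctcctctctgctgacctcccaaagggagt
The Esm1 window held 0 matches to these 6 bases, and the Emcn window held 2, which begin 163 and 82 bases before the 5′ end. Of all 32851 RefSeq promoters, 24.7% held at least 1 match in the 200 bases before the RefSeq start. A match is therefore common and only describes the letters. The Emcn window ends before the GENCODE 5′ end instead, upstream of the RefSeq start at chr3:137341078.

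The Plvap high cells were shallow. Their median was 2941 and 2274 UMIs in the aged libraries and 2614 and 2225 UMIs in the young libraries, against 4304 and 2965 (aged) and 3798 and 3993 UMIs (young) in fat-type cells. Their median number of genes was 1547 and 1349 in aged and 1321 and 1259 in young libraries. Their median mitochondrial share was 3.86% and 3.30% in aged and 5.11% and 4.36% in young libraries, so it was higher in both young libraries.

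The label was checked against genes that the rule did not use. Transcripts of Emcn were found in 92.2% and 89.5% of the Plvap high cells of the aged libraries and in 80.0% and 77.8% of those of the young libraries, against 89.6% and 85.6% of aged and 72.2% and 76.3% of young fat-type cells. Ptprb was found in 96.1% and 92.5% of aged and in 100% and 77.8% of young Plvap high cells, against 97.8% and 92.7% of aged and 90.1% and 90.4% of young fat-type cells. Esm1 was found in 49.4% and 44.8% of aged and in 40.0% and 44.4% of young Plvap high cells, against 59.9% and 63.2% of aged and 12.5% and 18.6% of young fat-type cells. These genes show endothelium, but in the aged libraries they do not set the Plvap high cells apart from fat-type cells, and Esm1 was found in a smaller share of them. The background from free RNA, read in Ptprc-positive leukocyte barcodes at median depths of 6050 and 4626 UMIs (aged) and 7502 and 7754 UMIs (young), was much lower. It was 2.55% and 2.72% of aged and 0.197% and 0.0978% of young leukocyte barcodes for Esm1. For Plvap itself it was 1.75% and 2.96% of aged and 0.853% and 0.619% of young leukocyte barcodes.

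Among genes that mark other endothelium, some were sparse and others were not. The arterial gene Gja5 was found in 4 and 7 aged and in 0 and 0 young Plvap high cells. The lymphatic regulator Prox1 was found in 1 and 2 aged and 0 and 0 young cells, and the venular chemokine receptor Ackr1 in 3 and 3 aged and 1 and 0 young cells. The arterial genes Gja4 and Efnb2 were found more often, Gja4 in 15.6% and 10.5% of aged and 0% and 33.3% of young Plvap high cells, and Efnb2 in 39.0% and 28.9% of aged cells and in 2 of 10 and 2 of 9 young ones. The venous regulator Nr2f2 was found in 27.3% and 24.7% of aged and 30.0% and 11.1% of young cells, and Flt4, the receptor of lymphatic growth factors, in 24.7% and 29.3% of aged and 30.0% and 22.2% of young cells. Their shares in fat-type cells were 9.27% to 12.2% for Gja4, 35.9% to 46.8% for Efnb2, 25.5% to 35.7% for Nr2f2 and 19.2% to 42.3% for Flt4 over the 4 libraries. Summed venous genes reached 6287 and 6409 CPM (UMIs per 1000000) in aged and 5107 and 3388 CPM in young Plvap high cells, against 5019 and 6302 CPM in aged and 2839 and 2986 CPM in young fat-type cells. Of the glomerular endothelial genes, Sost and Gata5 were listed at 0 in all 4 libraries. Ehd3, also a glomerular endothelial gene, was found in 14 and 47 aged cells (18.2% and 19.7%) and in 6 and 3 young cells (60.0% and 33.3%). The cortical peritubular gene Igfbp3 was found in 59.7% and 63.2% of aged and 80.0% and 77.8% of young Plvap high cells, against 67.0% and 69.8% of aged and 33.1% and 35.3% of young fat-type cells. Npr3, another gene of that list, was found in 28.6% and 28.0% of aged and 50.0% and 44.4% of young Plvap high cells, against 45.6% and 42.2% of aged and 32.3% and 33.3% of young fat-type cells. The 9 cortical peritubular genes summed to 4982 and 6040 CPM in aged and 8171 and 6894 CPM in young Plvap high cells, against 5999 and 6431 CPM in aged and 2775 and 2589 CPM in young fat-type cells. In the aged libraries this list was therefore no higher in Plvap high cells than in fat-type cells. RNA alone does not show fenestrae, so the cells are called Plvap high, the name of the rule.

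RNA of other cell types was present in the cells, in amounts that differed by library. The summed level of 10 fibroblast genes was 6131 and 3103 CPM in aged and 9499 and 6264 CPM in young Plvap high cells. Immunoglobulin and other B and plasma cell genes summed to 603 and 2824 CPM in aged cells and were at 0 in young cells. Igkc, the immunoglobulin light chain gene, was found in 48 and 163 aged cells and in 0 and 0 young cells. Summed macrophage genes reached 1146 and 2251 CPM in aged and 536 and 236 CPM in young cells, and summed tubule genes 323 and 611 CPM in aged and 2528 and 709 CPM in young cells. Summed mural genes reached 296 and 356 CPM in aged and 230 and 1655 CPM in young cells. T and NK cell genes, of which 3 of 10 were at 0 in all 4 libraries, summed to 83.3 and 195 CPM in aged and 0 and 0 CPM in young cells. Of the mesothelial genes 6 of 8 were at 0 in all 4 libraries. Of the 335 cells, 20 and 71 in aged and 2 and 3 in young libraries held at most 2 UMIs of all these lists together. Barcodes with the highest scores of a simulated-doublet caller were marked, in a number set in advance by library size. These were 5.41% and 9.58% of aged and 7.19% and 7.71% of young kept barcodes. Among Plvap high cells 4 and 28 aged and 0 and 1 young cells were marked. The part of other cells' RNA in the comparisons below was not tested, except where cells with at most 2 such UMIs are given.

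The values that chose the cells describe them and are not tested. The median Plvap count was 9 UMIs in both aged libraries, 10.5 in young replicate 1 and 4 in young replicate 2, with a highest count of 51 and 54 in aged and 39 and 22 in young libraries. Just inside the Plvap threshold stood 7 and 22 aged and 0 and 3 young cells with 2 UMIs. Just outside it stood 15 and 31 aged and 1 and 2 young cells with 1 UMI and few fat-type UMIs. Of the cells within the fat-type limit, 25 and 67 aged and 1 and 2 young cells held the highest allowed sum of 2 UMIs, and 15 and 37 aged and 1 and 1 young cells with at least 2 Plvap UMIs stood just outside with 3. The cells therefore continued into the fat-type cells without a gap, as the plot of single cells shows.

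**Figure D1:**
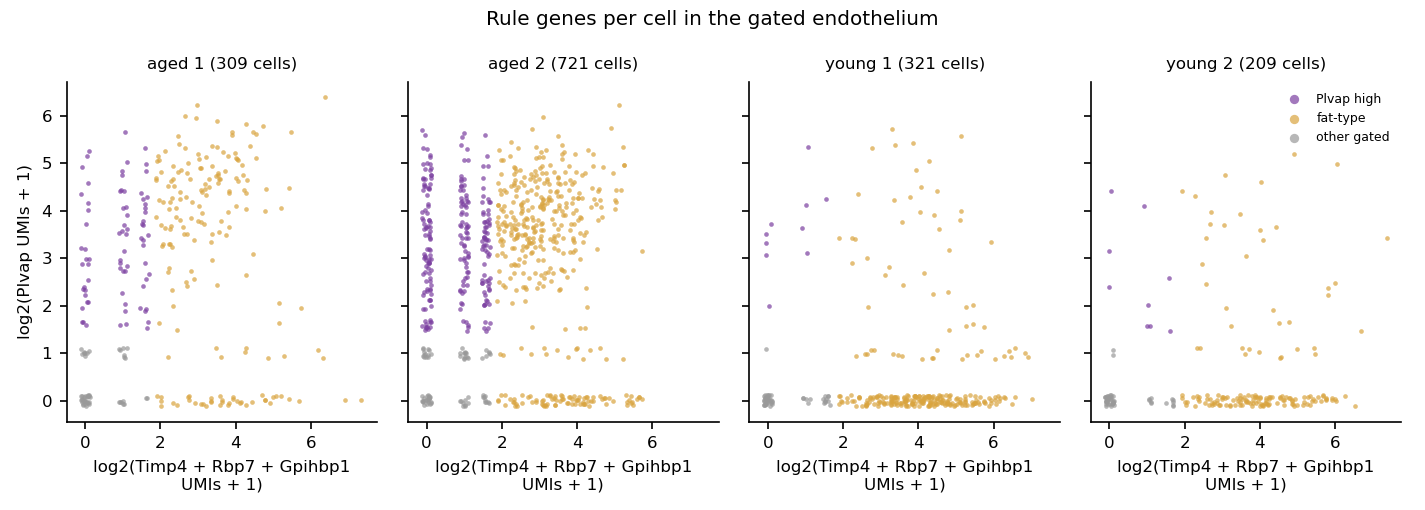
Each point is 1 gated endothelial cell, with log2 of its Plvap UMIs plus 1 on one axis and log2 of its summed Timp4, Rbp7 and Gpihbp1 UMIs plus 1 on the other, in 1 panel per library with the aged panels before the young ones (points are jittered). Plvap high cells number 77 and 239 in the aged and 10 and 9 in the young libraries.

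The question the design allows first is how common these cells were at each age. Aged replicates 1 and 2 held 77 and 239 Plvap high cells and young replicates 1 and 2 held 10 and 9, so 94.3% of the 335 cells were aged. They made up 1.14% (exact 95% interval 0.900 to 1.42) and 2.00% (1.75 to 2.26) of kept barcodes in aged libraries, against 0.111% (0.0534 to 0.204) and 0.0934% (0.0427 to 0.177) in young libraries. Both aged shares lay above both young shares and their intervals, which cover counting error only, did not overlap. The mean share was 1.57% ± 0.606 in aged and 0.102% ± 0.0126 in young libraries (SD, n = 2 each), a 15.3-fold difference with an exact two-sided permutation p of 0.33, the smallest that 2 against 2 libraries allow.

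Among gated endothelial cells alone the share was 24.9% (20.2 to 30.1) and 33.1% (29.7 to 36.7) in aged and 3.12% (1.50 to 5.65) and 4.31% (1.99 to 8.02) in young libraries. The means of 29.0% ± 5.82 in aged and 3.71% ± 0.842 in young libraries (SD, n = 2 each) differed 7.82-fold, and the groups did not overlap (exact permutation p = 0.33). Cells of at least 2000 UMIs were also thinned to 2000, with shallower ones dropped, and the rule was applied again. The share was then 38.4% ± 1.21 in aged and 5.47% ± 0.229 in young libraries (SD, n = 2 each). It rests on another set of cells, with 95 in place of 77 Plvap high cells in aged replicate 1 and 203 in place of 239 in aged replicate 2. Gated endothelium as a whole was 4.57% and 6.02% of kept barcodes in aged and 3.57% and 2.17% in young libraries, a difference of 1.85-fold between the means. Leukocytes are part of the first denominator. Among barcodes without Ptprc UMIs the Plvap high share averaged 3.71% ± 0.942 in aged and 0.153% ± 0.0222 in young libraries (SD, n = 2 each). A share can differ through the number of such cells or through the Plvap or fat-type transcripts per cell, and these cannot be told apart from a threshold.

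**Figure D2:**
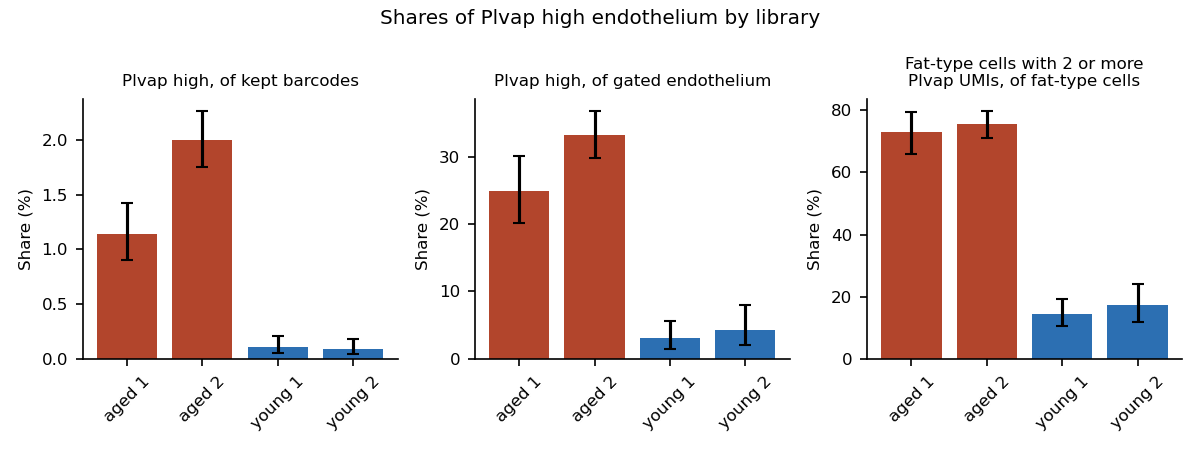
Bars give the share of cells in percent in each library, aged before young, with exact 95% binomial intervals, for Plvap high cells among kept barcodes, among gated endothelium, and for cells with at least 2 Plvap UMIs among fat-type cells. Both aged libraries lie above both young ones in each panel, for example 24.9% and 33.1% of gated endothelium in aged and 3.12% and 4.31% in young libraries.

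Plvap was also more frequent outside the population. Of fat-type cells, whose choice did not use Plvap, 133 and 310 (73.1% and 75.6%) in aged and 38 and 27 (14.4% and 17.3%) in young libraries had at least 2 Plvap UMIs. The means were 74.3% ± 1.79 in aged and 15.9% ± 2.02 in young libraries (SD, n = 2 each, exact permutation p = 0.33, the smallest possible). Thinned to 2000 UMIs, again with shallower cells dropped, they were 71.2% in aged and 10.4% in young libraries. The threshold on Plvap was therefore passed more often in aged endothelium on both sides of the fat-type limit.

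Across all gated endothelium, a class that none of the marker genes chose, the 4 markers were higher in aged libraries. Tests used UMI counts summed per library (edgeR quasi-likelihood test, Benjamini-Hochberg adjustment, called at an adjusted p of 0.05), and fold changes are log2 of aged over young. Of 10799 genes tested, 575 (5.32%) rose and 765 (7.08%) fell. These counts were 222 and 293 without young replicate 1, 256 and 376 with young replicate 2 left out, and were 850 and 1169 with aged replicate 1 left out. Plvap was at 2736 and 3423 CPM in aged and 381 and 342 CPM in young endothelium, a log2 change of 3.06 (SE 0.12, adjusted p = 1.2e-05). Esm1 was at 926 and 1004 CPM in aged and 132 and 158 CPM in young endothelium, a log2 change of 2.71 (SE 0.13, adjusted p = 2.8e-05). Neither gene overlapped between the ages. Emcn was at 1006 and 1187 CPM in aged and 410 and 454 CPM in young endothelium, a log2 change of 1.31 (SE 0.12, adjusted p = 2.8e-04). Ptprb was at 1601 and 1556 CPM in aged and 1009 and 877 CPM in young endothelium, a log2 change of 0.71 (SE 0.10, adjusted p = 0.0022). In cells with at most 2 UMIs of other cell types the Ptprb change was 0.48 and did not pass (adjusted p = 0.232).

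The genes of the fat-type limit moved unequally. Timp4, an inhibitor of metalloproteinases, was at 93.2 and 74.7 CPM in aged and 597 and 496 CPM in young endothelium, and fell by 2.75 on the log2 scale (SE 0.16, adjusted p = 4.6e-05). Rbp7, a retinoid-binding protein, was at 250 and 218 CPM in aged and 804 and 701 CPM in young endothelium, and fell by 1.72 on the log2 scale (SE 0.13, adjusted p = 1.2e-04). Gpihbp1 was at 1495 and 1713 CPM in aged and 1888 and 1860 CPM in young endothelium, a log2 change of -0.26 that did not pass (SE 0.09, adjusted p = 0.11). Gpihbp1 passed, as a fall, without aged replicate 2 (-0.36), in thinned cells (-0.38) and in cells with at most 2 UMIs of other cells (-0.80).

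Within the Plvap high cells none of the 3 markers outside the rule passed the test between the ages. Plvap, which chose the cells, was at 3117 and 4443 CPM in aged and 3498 and 2521 CPM in young Plvap high cells. Emcn was at 1122 and 1531 CPM in aged and 1124 and 1418 CPM in young cells, a log2 change of 0.11 (SE 0.26, adjusted p = 0.96). Ptprb was at 1808 and 1884 CPM in aged and 1532 and 2009 CPM in young cells, a log2 change of 0.11 (SE 0.24, adjusted p = 0.96). The young values of Plvap, Emcn and Ptprb overlapped with the aged ones. Esm1 was at 659 and 766 CPM in aged and 817 and 1024 CPM in young cells, so both young libraries were higher, with a log2 change of -0.32 (SE 0.25, adjusted p = 0.79). The young sums rest on 32 and 26 Esm1 UMIs and 44 and 36 Emcn UMIs, and a missed threshold does not show that the ages are alike.

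In fat-type cells the same genes stood apart by age. Plvap was at 3316 and 3414 CPM in aged and 377 and 359 CPM in young fat-type cells, a log2 change of 3.16 (SE 0.09, adjusted p = 2.6e-09). Esm1 was at 1222 and 1228 CPM in aged and 135 and 170 CPM in young fat-type cells, a log2 change of 2.98 (SE 0.14, adjusted p = 2.2e-07). The young Plvap high cells thus had Esm1 at 817 and 1024 CPM beside 135 and 170 CPM in the fat-type cells of the same libraries, while the aged Plvap high cells had 659 and 766 CPM beside 1222 and 1228 CPM. Emcn was at 1185 and 1141 CPM in aged and 459 and 517 CPM in young fat-type cells, a log2 change of 1.22 (SE 0.11, adjusted p = 2.2e-05). Ptprb was at 1754 and 1494 CPM in aged and 1139 and 1021 CPM in young fat-type cells, a log2 change of 0.56 (SE 0.11, adjusted p = 0.0047), which did not pass with young replicate 2 left out (0.49, adjusted p = 0.0634) or in cells with at most 2 UMIs of other cells (0.57, adjusted p = 0.22). In all gated cells outside both classes Esm1 was at 127 and 133 CPM in aged and 29.3 and 0 CPM in young libraries.

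**Figure D3:**
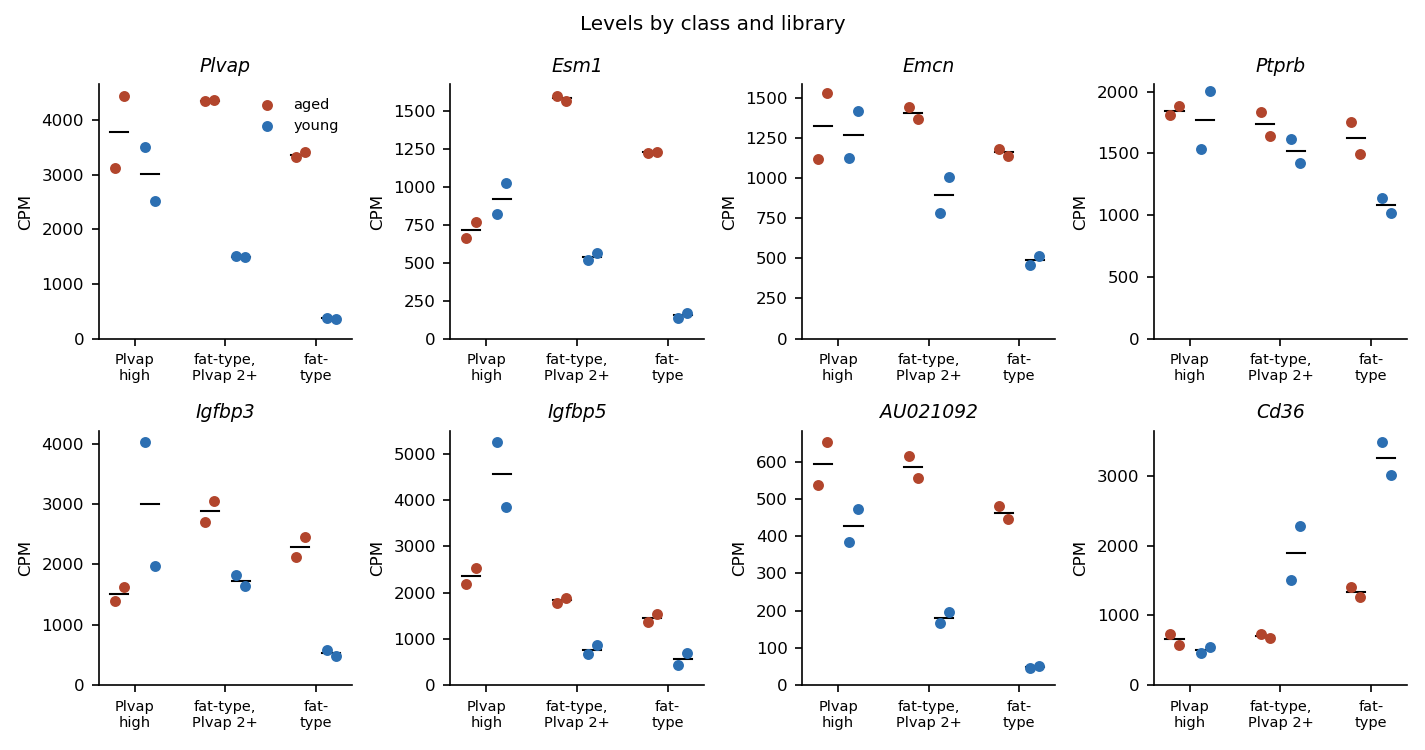
Points give the summed level in CPM of each library, aged left of young, and lines the mean of an age, for 8 genes in Plvap high cells, in fat-type cells with at least 2 Plvap UMIs and in all fat-type cells. Esm1 in young libraries stands at 817 and 1024 CPM in Plvap high cells and at 135 and 170 CPM in fat-type cells, while Cd36 in young libraries stands at 460 and 552 CPM in Plvap high cells and at 3498 and 3015 CPM in fat-type cells.

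Over all genes, aged and young Plvap high cells were compared on sums of 300294 and 662803 UMIs (aged) and 39163 and 25385 UMIs (young). Of 3383 genes tested, 1 (0.0296%) passed, and 269 were under an unadjusted p of 0.05. The calls numbered 0 rising and 0 falling without young replicate 1, 13 and 26 with young replicate 2 left out, 4 and 17 without aged replicate 1, and 3 and 3 without aged replicate 2. At these depths the test recovered 3.3% of simulated 2-fold and 31.9% of simulated 4-fold changes, so most changes of these sizes would be missed. The gene that passed was mt-Nd3, a mitochondrially encoded subunit of respiratory complex I, at 113 and 86.0 CPM in aged and 792 and 591 CPM in young cells. It fell by 2.81 on the log2 scale (SE 0.34, adjusted p = 0.049). The change was -2.26 and did not pass without young replicate 1 (adjusted p = 0.233), -2.42 with at least 3 Plvap UMIs (0.388), -2.51 at a mitochondrial limit of 10% (0.36) and -2.76 in thinned cells (0.35). The adjusted p had a range of 1.4e-09 to 0.388 in the alternatives, and it was too low to be tested in cells with at most 2 UMIs of other cells. In fat-type cells mt-Nd3 was at 90.7 and 93.9 CPM in aged and 303 and 291 CPM in young libraries, and over all kept barcodes at 67.2 and 81.7 CPM in aged and 262 and 247 CPM in young libraries.

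No other gene passed, and the next genes by p are given as values. mt-Nd4 and mt-Nd2, other complex I subunits, had log2 changes of -1.50 (adjusted p = 0.113) and -1.60 (adjusted p = 0.116). The 13 mitochondrially encoded genes summed to 9071 and 8352 CPM in aged and 20120 and 23950 CPM in young Plvap high cells. Cpe, which encodes a carboxypeptidase of prohormone processing, was at 19.98 and 15.1 CPM in aged and 434 and 118 CPM in young cells (log2 change -4.10, adjusted p = 0.113), and its young UMIs came from 2 cells and 1 cell. Ier2, an immediate early gene, was at 919 and 785 CPM in aged and 255 and 315 CPM in young cells, with no overlap (log2 change 1.63, adjusted p = 0.149). H2-Ab1, an MHC class II chain, was at 553 and 415 CPM in aged and 51.1 and 118 CPM in young cells (log2 change 2.65, adjusted p = 0.143). In cells with at most 2 UMIs of other cells its log2 change was 0.26. Lyz2, the lysozyme gene of macrophages, had a log2 change of 2.40 (adjusted p = 0.116), which turned to -0.30 once marked doublets were removed. Nbl1, Fry and Myl9, the smooth muscle myosin light chain, had log2 changes of -2.62, -2.69 and -3.08 (adjusted p = 0.143 each).

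The gene lists are described by counts. No list gene of the Plvap high cells passed apart from mt-Nd3, so medians over tested members stand beside the median of 0.06 over all 3383 genes. The fat-type values are given next to them, with the median of 0.003 over 9765 genes tested there, of which 580 (5.94%) rose and 732 (7.50%) fell in aged cells (223 and 265 without young replicate 1, 336 and 472 with young replicate 2 left out).

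Genes of fenestrae and caveolae, the membrane pits that share the Plvap diaphragm, had a median log2 change of 0.07 over 9 tested in Plvap high cells, with Plvap left out. In fat-type cells 3 of 11 rose and 5 fell. Cav1, the main caveolar coat protein, was at 180 and 161 CPM in aged and 306 and 394 CPM in young Plvap high cells, and at 501 and 398 CPM in aged and 1101 and 1112 CPM in young fat-type cells, where it fell by 1.33 on the log2 scale (SE 0.13, adjusted p = 2.9e-05). Ehd4, an ATPase of membrane remodelling, was at 1029 and 1255 CPM in aged and 1175 and 788 CPM in young Plvap high cells. In fat-type cells it was at 810 and 852 CPM in aged and 225 and 177 CPM in young libraries and rose by 2.01 (SE 0.14, adjusted p = 3.0e-06). The Ehd4 groups overlapped in Plvap high cells and not in fat-type cells.

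VEGF and angiopoietin signalling, which governs capillary growth and permeability, had a median of 0.03 over 16 tested genes in Plvap high cells. In fat-type cells 9 of 25 rose and 4 fell. Adgrl4, an endothelial adhesion receptor, was at 1186 and 1963 CPM in aged and 1047 and 1654 CPM in young Plvap high cells, and rose by 1.19 in fat-type cells (1544 and 1462 CPM aged, 683 and 602 CPM young, adjusted p = 1.8e-05). Angpt2, the Tie2 ligand released by activated endothelium, was at 103 and 139 CPM in aged and 25.5 and 39.4 CPM in young Plvap high cells, where each young value is 1 UMI. It rose by 1.93 in fat-type cells (178 and 154 CPM aged, 48.8 and 32.9 CPM young, adjusted p = 2.6e-05).

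The receptor genes Ednrb, Eng and Ramp3 overlapped between the ages in the Plvap high cells. Ednrb, the endothelin B receptor, was at 653 and 935 CPM in aged and 817 and 748 CPM in young cells, and Eng, the TGF-beta co-receptor endoglin, at 1429 and 1747 CPM in aged and 1532 and 1221 CPM in young cells. Ramp3, which modifies the adrenomedullin receptor, was at 250 and 419 CPM in aged and 255 and 276 CPM in young cells. In fat-type cells all 3 rose, Ramp3 by 3.05 (407 and 404 CPM aged, 42.9 and 54.5 CPM young, adjusted p = 6.8e-07), Ednrb by 1.56 and Eng by 1.15.

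Coagulation genes had a median of 0.36 over 10 tested in Plvap high cells, and 5 of 13 rose and 1 fell in fat-type cells. F8, the coagulation factor VIII that endothelium makes, was at 400 and 358 CPM in aged and 230 and 158 CPM in young Plvap high cells. In fat-type cells it was at 294 and 276 CPM in aged and 32.5 and 19.3 CPM in young libraries and rose by 3.35 (SE 0.20, adjusted p = 8.7e-07). F2r, the thrombin receptor, was at 296 and 356 CPM in aged and 306 and 236 CPM in young Plvap high cells, and rose by 2.20 in fat-type cells (adjusted p = 2.3e-06). Leukocyte adhesion genes had a median of 0.006 over 11 tested in Plvap high cells, and 6 of 13 rose and 2 fell in fat-type cells. Vcam1, a receptor for leukocyte integrins, was at 253 and 266 CPM in aged and 25.5 and 39.4 CPM in young Plvap high cells, where each young value is 1 UMI. It rose by 2.80 in fat-type cells (110 and 97.2 CPM aged, 15.6 and 12.5 CPM young, adjusted p = 6.8e-06).

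MHC class II presentation was the list with the highest median among those of 5 or more genes tested in Plvap high cells, at 2.04 over 6 genes, none of which passed. Its 12 genes summed to 3184 and 2458 CPM in aged and 741 and 552 CPM in young Plvap high cells. Cd74, the invariant chain, was at 1252 and 951 CPM in aged and 357 and 78.8 CPM in young cells, resting on 14 and 2 young UMIs. In fat-type cells 7 of 8 rose, Cd74 by 1.83 (adjusted p = 2.4e-05). The list summed to 21350 and 22750 CPM in aged and 20900 and 18290 CPM in young leukocyte barcodes. MHC class I genes had a median of 0.32 over 18 tested in Plvap high cells, and 8 of 19 rose in fat-type cells.

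Basement membrane genes had a median of -0.37 over 14 tested in Plvap high cells and summed to 5878 and 4780 CPM in aged and 7252 and 9494 CPM in young cells. In fat-type cells 12 of 17 fell. Sparc, a collagen-binding matrix protein, was at 1938 and 1697 CPM in aged and 2758 and 3585 CPM in young Plvap high cells, and fell by 1.03 on the log2 scale in fat-type cells (adjusted p = 5.0e-06). Summed fibroblast genes, which include matrix genes, were lower in both aged fat-type libraries (1515 and 2158 CPM) than in young ones (5983 and 4805 CPM). Their part in these falls was not tested.

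Fatty acid handling genes had a median of -0.16 over 8 tested in Plvap high cells, and 12 of 18 fell in fat-type cells. Fabp4 was at 4945 and 5110 CPM in aged and 8580 and 5160 CPM in young Plvap high cells, and at 16215 and 15125 CPM in aged and 35681 and 34282 CPM in young fat-type cells, where it fell by 1.19 on the log2 scale (SE 0.05, adjusted p = 8.2e-08). Fabp5 was at 223 and 222 CPM in aged and 281 and 276 CPM in young Plvap high cells and fell by 1.31 on the log2 scale in fat-type cells (adjusted p = 4.6e-06). Adipocyte genes summed to 258 and 200 CPM in aged and 1782 and 1337 CPM in young fat-type cells, and to 436 and 16.6 CPM in aged and 0 and 0 CPM in young Plvap high cells. Their part in these values was not tested.

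Other lists are given by their counts, and not every list is shown. In Plvap high cells the median was -0.66 over 7 tested cell cycle inhibitor and senescence genes and -1.06 over 5 complement and acute phase genes. It was 0.72 over 8 NF-kB response genes and 0.62 over 8 chemokine and cytokine genes, with none called in these lists. In fat-type cells 4 of 14, 0 of 13, 6 of 18 and 4 of 16 genes rose in the same order, and 4, 6, 1 and 5 fell. Ribosomal protein genes had a median of 0.48 over 44 tested in Plvap high cells, all 44 with a positive change and none called, and 8 of 44 rose in fat-type cells. They summed to 77010 and 67150 CPM in aged and 55690 and 49750 CPM in young Plvap high cells, and over all kept barcodes to 116000 and 112400 CPM in aged and 82280 and 79080 CPM in young libraries. Early response genes, which tissue digestion can induce, had a median of 0.52 over 16 tested in Plvap high cells, where 0 passed, while 2 of 17 rose and 5 fell in fat-type cells. Interferon-stimulated genes had a median of -0.19 over 31 tested in Plvap high cells, and 9 of 43 rose and 1 fell in fat-type cells. Heat shock genes had a median of -0.04 over 12 tested in Plvap high cells, and 6 of 14 fell in fat-type cells. Cortical peritubular genes had a median of -0.35 over 9 tested in Plvap high cells, and 5 of 9 rose and 1 fell in fat-type cells.

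**Figure D4:**
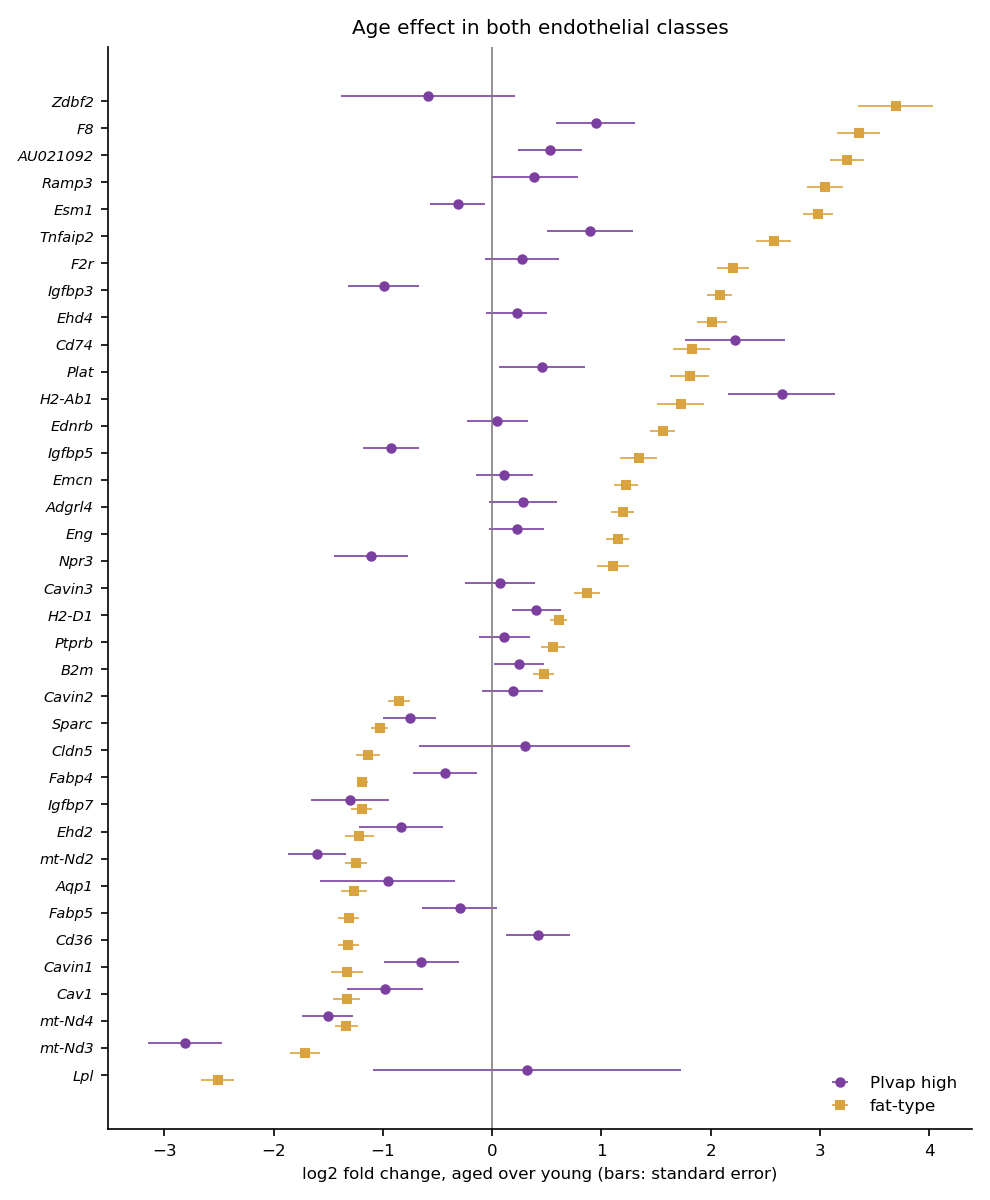
Points give the log2 change of aged over young with its SE in Plvap high cells and in fat-type cells, for 37 named genes with over 3 UMIs in the Plvap high cells of each age. The genes are those named for the fat-type test. The sign of the change is opposite in the 2 classes for 9 of the 37 genes, and the share over all genes is not given, so this count only describes the plot.

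Whether the age difference was unequal in the 2 classes was tested directly, as the log2 change in Plvap high cells minus that in fat-type cells. The 10 and 9 young Plvap high cells fall short of the 20 cells per library set for this test, so it stands as an added analysis. Of 9378 genes, 34 (0.363%) had a higher and 24 (0.256%) a lower change in Plvap high cells. The median over all genes was 0.39, and 1.03 with no filter on low counts. Each gene was tested against 0, so the calls and p-values include that shift. The counts of higher and lower changes were 1 and 2 without young replicate 1, 5 and 6 with young replicate 2 left out, 10 and 5 without aged replicate 1, and 53 and 6 without aged replicate 2. Esm1 had the difference of -3.04 (SE 0.34, adjusted p = 5.7e-07), and one between -4.42 and -1.73 in the alternatives. Plvap, which chose 1 class and not the other, had a fitted difference of -2.55 and is not tested. Of the alternatives, only that against fat-type cells with at least 2 Plvap UMIs, given below, put the Plvap threshold on both classes. The part of the rule in the Esm1 difference was not tested. Igfbp3, which binds insulin-like growth factors and marks cortical peritubular endothelium, had a difference of -2.74 (SE 0.31, adjusted p = 5.7e-07). It was at 1385 and 1620 CPM in aged and 4034 and 1970 CPM in young Plvap high cells, and at 2118 and 2461 CPM in aged and 576 and 483 CPM in young fat-type cells. Igfbp5, a related binding protein, had a difference of -2.02 (SE 0.32, adjusted p = 4.1e-04). It was at 2191 and 2538 CPM in aged and 5260 and 3861 CPM in young Plvap high cells, at 1357 and 1543 CPM in aged and 441 and 685 CPM in young fat-type cells, and at 2604 and 2483 CPM in aged and 2445 and 2757 CPM in young fibroblast-type barcodes. Both genes were lower in aged Plvap high cells and higher in aged fat-type cells, with no overlap by age in either class. In Plvap high cells that lack of overlap was a condition for naming these genes. Within Plvap high cells alone neither passed (Igfbp3 -0.99, adjusted p = 0.43; Igfbp5 -0.92, adjusted p = 0.351).

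Genes in the other direction were led by Cd36, the fatty acid translocase, with a difference of 1.99 (SE 0.33, adjusted p = 8.7e-04). Cd36 was at 733 and 576 CPM in aged and 460 and 552 CPM in young Plvap high cells, and at 1410 and 1263 CPM in aged and 3498 and 3015 CPM in young fat-type cells. The rule held Timp4, Rbp7 and Gpihbp1 low in Plvap high cells at both ages, and Cd36 belongs to the same programme. The part of that limit in the Cd36 difference was not tested. Rflnb had a difference of 2.05 (adjusted p = 0.0085) and Ier2 one of 1.83 (adjusted p = 0.012). Over the alternatives Rflnb lay between 1.96 and 3.36 and Ier2 between 0.74 and 2.11. Cxcl9, an interferon-induced chemokine, and Cyr61, a matricellular protein, were also among the genes of smallest p. Cxcl9 was at 89.9 and 133 CPM and Cyr61 at 143 and 101 CPM in aged Plvap high cells, and both were listed at 0 UMIs in young ones, where the fitted fold is no bound. AU021092, a protein-coding gene, had a difference of -2.45 (adjusted p = 8.9e-04) and Nuak1, a kinase related to AMPK, one of -2.42 (adjusted p = 0.0082). Over the alternatives AU021092 lay between -5.26 and -1.03 and Nuak1 between -2.57 and -1.30. Emcn (-0.86, adjusted p = 0.41) and Ptprb (-0.17, adjusted p = 0.94) did not pass.

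Since Plvap chose 1 class and not the other, the test was repeated against fat-type cells with at least 2 Plvap UMIs, which numbered 133 and 310 in aged and 38 and 27 in young libraries. Their median depth was 4389 and 3070 UMIs in aged and 9184 and 5350 UMIs in young libraries. Plvap high cells had 2941 and 2274 (aged) and 2614 and 2225 UMIs (young). A limit of 2 UMIs is looser relative to depth in the deeper cells, most of all in the young fat-type ones. The fat-type limit also still split the classes. The part of both in the differences was not tested. The difference remained called for Esm1 (-1.73, adjusted p = 0.023), Igfbp5 (-2.04, adjusted p = 0.0080), Cd36 (1.94, adjusted p = 0.017) and Rflnb (2.13, adjusted p = 0.023). It was no longer called for Igfbp3 (-1.51, adjusted p = 0.066), AU021092 (-1.03, adjusted p = 0.61), Nuak1 (-1.30, adjusted p = 0.53) or Ier2 (1.72, adjusted p = 0.075). Cxcl9 was no longer called (adjusted p = 0.415) and Cyr61 still was (adjusted p = 0.0247), and neither fitted fold is a bound. Esm1 in these fat-type cells was at 1599 and 1565 CPM in aged and 517 and 561 CPM in young libraries. At that Plvap threshold, shared in UMIs but not relative to depth, both aged levels of Esm1 exceeded both young ones in fat-type cells. In Plvap high cells both aged levels were below the young ones. Without young replicate 1 neither Igfbp5 (-1.27, adjusted p = 0.186) nor Cd36 (1.93, adjusted p = 0.176) passed against all fat-type cells, and neither passed without aged replicate 1.

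The Plvap high cells were last set beside fat-type cells of the same library, as a description with no test, since the rule separated them. Of 2071 genes of at least 100 CPM in either class, 227 were higher and 304 lower in Plvap high cells in all 4 libraries. Symbols in Gm or Rik were left out of the 227 and 304 but not of the 2071. The counts to be met with no difference between the classes were not estimated. Slco2a1, the prostaglandin transporter, was at 89.9 and 64.9 CPM in aged and 179 and 78.8 CPM in young Plvap high cells, against 24.8 and 20.8 CPM in aged and 6.51 and 11.4 CPM in young fat-type cells. Its ratio of mean levels over the 4 libraries was 6.50, in aged libraries alone 3.39, and in aged cells with at most 2 UMIs of other cells 2.51. The same 3 ratios were 5.08, 3.11 and 2.17 for Npnt, which encodes the matrix protein nephronectin, and 3.68, 2.07 and 2.03 for Mal, a membrane raft protein. The ratio over the 4 libraries gives the small young sums the same weight as the aged ones. The aged cells with at most 2 UMIs of other cells summed to 56851 and 151959 UMIs in Plvap high cells. In fat-type cells they summed to 122967 and 222374 UMIs. Ratios in these cells rest on few UMIs for genes at low levels, such as Slco2a1 (35.2 and 39.5 CPM against 16.3 and 13.5 CPM). Mal was at 360 and 327 CPM in aged and 281 and 709 CPM in young Plvap high cells, against 162 and 170 CPM in aged and 57.3 and 65.9 CPM in young fat-type cells. Slco2a1, Npnt and Mal were low in fibroblast-type barcodes, at mean levels of 15.9, 12.3 and 0.502 CPM.

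Some of the other genes with the highest ratios were also high in fibroblasts. Cpxm2, a carboxypeptidase-like protein, had a ratio of 6.25 and averaged 290 CPM in fibroblast-type barcodes, Pdlim2 had a ratio of 3.88 beside 304 CPM, and Igfbp5 3.44 beside 2572 CPM. In aged libraries alone these ratios were 4.56, 3.397 and 1.63, and in aged cells with at most 2 UMIs of other cells 2.97, 1.42 and 1.35. Cpe had a ratio of 3.47 over the 4 libraries, 1.24 in aged libraries and 0.521 in those aged cells. Mgp, the matrix Gla protein, had ratios of 2.94, 2.01 and 4.31 in the same order. In aged cells with at most 2 UMIs of other cells several of these ratios rest on a handful of UMIs. There Cpxm2 was at 17.6 and 6.58 CPM in Plvap high against 8.13 and 0 CPM in fat-type cells. Pdlim2 was at 17.6 and 13.2 CPM against 8.13 and 13.5 CPM, and Cpe at 0 and 6.58 CPM against 8.13 and 4.50 CPM. Boc, Ltbp1, Cdc14a, Cd24a, Emilin1, Ptpru and Arl4d completed the 15 highest, with ratios between 2.81 and 3.92 over the 4 libraries. In aged libraries alone their ratios lay between 1.23 for Boc and 1.77 for Ltbp1. In aged cells with at most 2 UMIs of other cells the ratio was 1.34 for Boc, 1.15 for Ltbp1, 2.32 for Cdc14a, 1.36 for Cd24a, 4.11 for Emilin1, 1.17 for Ptpru and 1.09 for Arl4d.

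The 10 genes with the lowest ratios were read in cells that the rule had chosen for few fat-type transcripts. Car4, a membrane carbonic anhydrase of capillaries, was at 0 and 1.51 CPM in aged and 0 and 0 CPM in young Plvap high cells, against 97.2 and 95.9 CPM in aged and 413 and 368 CPM in young fat-type cells. Aqp7, a channel for glycerol, was at 0 and 1.51 CPM in aged and 0 and 0 CPM in young Plvap high cells, against 75.6 and 69.7 CPM in aged and 314 and 254 CPM in young fat-type cells. Pparg, the nuclear receptor that governs fatty acid genes, had a ratio of 0.131 (0.199 in aged cells with at most 2 UMIs of other cells). Cldn5, the tight junction claudin of endothelium, was at 316 and 125 CPM in aged and 0 and 433 CPM in young Plvap high cells, against 1087 and 906 CPM in aged and 2066 and 2227 CPM in young fat-type cells, a ratio of 0.139 (0.168). C1qtnf9, Ssh2 and Tspan13 had ratios of 0.135, 0.141 and 0.162. The haemoglobin genes Hbb-bs and Hbb-bt and the adipocyte gene Cfd completed the 10 lowest. Haemoglobin and adipocyte transcripts mark red cells and fat cells, and they varied by library in fat-type cells, with summed red cell genes at 7.56 and 2345 CPM in aged and 3570 and 2018 CPM in young fat-type cells.

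**Figure D5:**
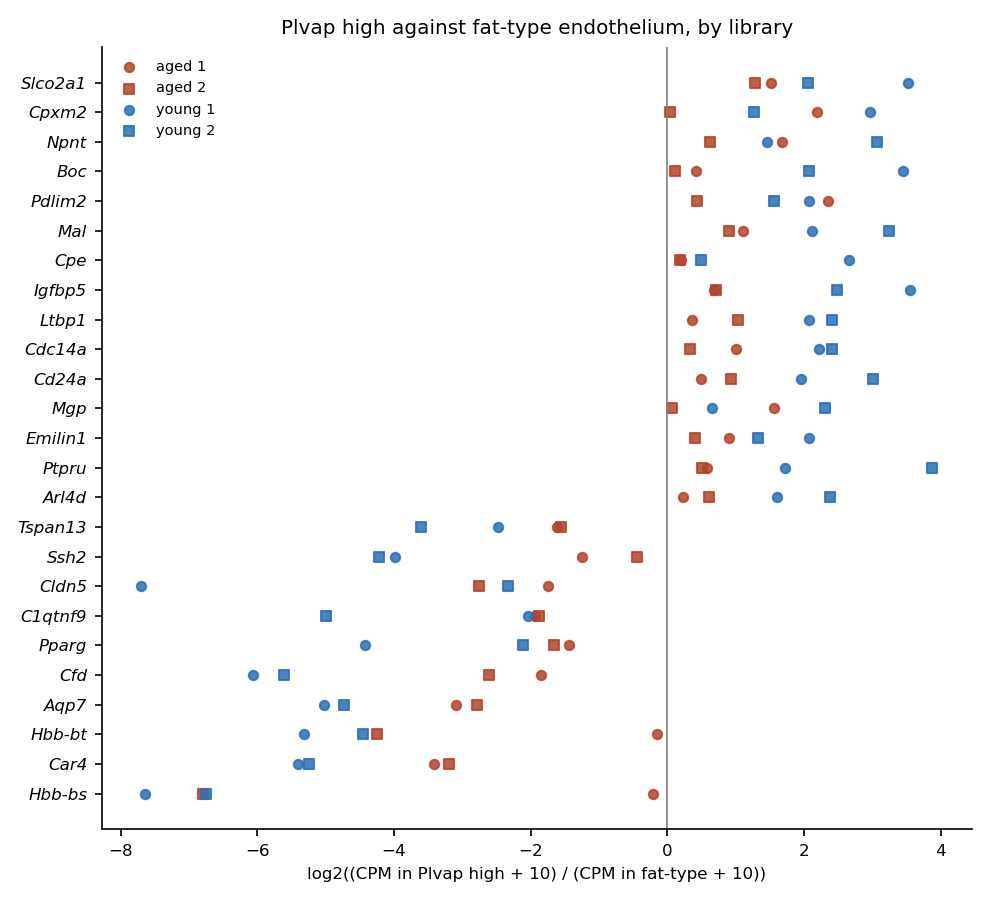
Points give, for each library, log2 of the level in Plvap high cells over that in fat-type cells, with 10 CPM added to both, for the 15 genes of highest and the 10 of lowest ratio. All 4 libraries lie on 1 side of 0 for each gene, a condition by which the genes were chosen.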

How the data were processed

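Single-cell 3' RNA was measured in 2 aged and 2 young renal capsule libraries. The deposited values are UMI counts per gene and barcode, made by the authors with Cell Ranger 6.0.2 on build GRCm38, per the submitters' processing notes (6.0.1, per the file headers), and barcodes had already been called as cells. Settings and annotation of that run: not given in the sources used here. Gene coordinates come from GENCODE M21, which matched 99.7% of the 52636 genes. Samples were grouped by age from the labels. The cell population and the gene lists were chosen with earlier results of these data known, and several lists follow an earlier analysis of the same files.

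Python 3.11.15 read the counts and applied the gate. A level is the UMIs of a gene summed over the cells of a class and library, per 1000000 UMIs of that sum (CPM), so shallow classes have coarse levels. Gene changes were tested on these sums with edgeR 4.0.16 (R 4.3.3, TMM scaling, its filter on low counts, quasi-likelihood test, Benjamini-Hochberg adjustment over all genes tested), and a gene rose or fell at an adjusted p of 0.05. Shares have exact Clopper-Pearson 95% intervals and were compared by an exact two-sided permutation test over libraries. The interaction asked for 20 cells per library, which young libraries lack, and was run without that minimum.

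Named genes were, under the rule used, those past the test with the largest changes (up to 12 in each direction), up to 4 list genes a direction, and the 10 of smallest p where fewer than 5 passed. For the interaction the 5 of smallest p in each direction were taken. The largest changes and the interaction genes were limited to libraries of the ages not overlapping, at least 20 CPM in the higher age and a level no lower than over all kept barcodes, with no gate gene, no gene of a list for other cells and no symbol in Gm or Rik, so genes such as Mt1 and Cdkn1c with a small interaction p were left out. For the description against fat-type cells the 15 highest and 10 lowest ratios were taken. Values shown for list genes in the other class were added beside them.

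On simulated counts with known changes, the test recovered 3.3% of 2-fold and 31.9% of 4-fold changes in Plvap high cells (3455 genes), and 41.4% and 98.0% in fat-type cells (9699 genes). Alternatives were DESeq2 size factors, the DESeq2 1.42.0 Wald test, no filter, a replicate block and removal of marked doublets. Further ones were other gate limits, at most 2 UMIs of other cells, thinning to 2000 UMIs and leaving out each library. Marked doublets were the barcodes with the highest Scrublet scores (scanpy 1.11.5), in a number set by library size. In addition, 5 analyses (the fits of all gated endothelium and of fat-type cells, the interaction without its minimum, the description with few UMIs of other cells and the interaction against fat-type cells with Plvap) were chosen after seeing the data.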

Additional observations from a re-analysis of the deposited data

Results flagged for a closer look

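Of the 34 genes with a higher and 24 with a lower change by the interaction test, 10 are given here. They are those named in the text or its lists whose mean level differed by age in opposite directions in Plvap high and fat-type cells, with over 3 UMIs in the Plvap high cells of each age and no gene of the gate or of a list for other cells. Ier2, Ehd4, Ramp3, F8, Fabp4 and AU021092 also passed, with mean levels that differed in the same direction in both classes. The values are log2 changes of aged over young in Plvap high cells minus those in fat-type cells, and the young Plvap high cells number 10 and 9. They were tested against 0, with the median shift of 0.39 left in. Esm1 had -3.04 (edgeR adjusted p = 5.7e-07), Igfbp3 -2.74 (5.7e-07) and Igfbp5 -2.02 (4.1e-04). Nuak1 had -2.42 (0.0082) and Npr3, the natriuretic peptide clearance receptor, -1.94 (0.023). Npr3 was at 150 and 174 CPM in aged and 332 and 394 CPM in young Plvap high cells, and at 272 and 225 CPM in aged and 111 and 115 CPM in young fat-type cells.

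Cd36 had 1.99 (8.7e-04) and Rflnb 2.05 (0.0085). The early response genes Jund, Btg2 and Egr1 had 1.63 (0.016), 1.58 (0.036) and 1.53 (0.044). Jund was at 812 and 773 CPM in aged and 332 and 630 CPM in young Plvap high cells, and at 955 and 896 CPM in aged and 1324 and 1302 CPM in young fat-type cells. Early response genes summed to 11260 and 9502 CPM in aged and 5898 and 8351 CPM in young Plvap high cells. Against fat-type cells with at least 2 Plvap UMIs the differences were 1.47 for Jund (adjusted p = 0.139), 1.58 for Btg2 (0.117), 1.48 for Egr1 (0.33) and -1.90 for Npr3 (0.0847), and none of these 4 passed. Igfbp3 (-1.51, adjusted p = 0.066) and Nuak1 (-1.30, adjusted p = 0.53) did not pass there either, while Esm1, Igfbp5, Cd36 and Rflnb did. Groups of 2 libraries allow no test for a library that stands apart.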

How the results depend on the processing

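In Plvap high cells the counts of 0 genes rising and 1 falling became 85 and 35 with no filter on low counts, 4 and 10 by the DESeq2 Wald test, and 0 to 13 and 0 to 26 with a library left out, while 0 fell with at least 3 Plvap UMIs, a mitochondrial limit of 10%, at most 2 UMIs of other cells or thinned cells. In gated endothelium 575 rising and 765 falling became 272 and 335 by DESeq2, 33 and 67 with at most 2 UMIs of other cells, 870 rising with no filter, and 222 to 850 and 293 to 1169 with a library left out. In fat-type cells 580 rising and 732 falling became 237 and 272 by DESeq2, 46 and 73 with at most 2 UMIs of other cells, 375 and 417 when thinned, and 223 to 703 and 265 to 848 with a library left out. The interaction counts of 34 higher and 24 lower became 6 and 7 with at most 2 UMIs of other cells, 8 and 3 against fat-type cells with at least 2 Plvap UMIs, and 1 to 53 and 2 to 6 with a library left out. The higher count was 60 with DESeq2 size factors, 77 with no filter, 57 without marked doublets and 91 at a mitochondrial limit of 10%.

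The replicate block, fitted although the numbers only name the libraries (correlations of deviations -0.008 to 0.13 over the classes), gave 19 rising and 24 falling genes in Plvap high cells and 117 higher in the interaction. The share of kept barcodes differed by 1.47 percentage points (aged minus young), 1.02 with a fat-type sum under 2, 2.01 under 5, 3.56 among barcodes without Ptprc and 1.04 to 1.89 with a library left out. The share of gated endothelium differed by 25.3 points, 32.9 when thinned, 17.3 with a fat-type sum under 2, 35.1 under 5 and 21.2 to 29.4 with a library left out.

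Signs turned for Lyz2 (-0.303 without marked doublets), and in Plvap high cells for genes near 0: Emcn (-0.0210 with at least 3 Plvap UMIs, -0.0431 thinned, -0.0620 at the mitochondrial limit, -0.181 without aged replicate 2, and up to 0.345 with another library left out), Ptprb (-0.0309 thinned) and Esm1 (0.0631 with no filter). The Ptprb interaction turned to 0.00240 with at least 3 Plvap UMIs, 0.0421 without marked doublets, 0.0747 against fat-type cells with Plvap, 0.128 at the mitochondrial limit, and 0.0539 and 0.108 without aged replicate 1 and young replicate 2, with -0.270 at the other end without young replicate 1. The causes were not tested. Depth limits the young Plvap high sums, 39163 and 25385 UMIs, in which 1 UMI is 25.5 and 39.4 CPM.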
